A study of Mus musculus with 6 samples.

Results

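Transcription of Gcg, the gene that encodes the precursor of glucagon-like peptide-1 (GLP-1), depends on a small group of DNA-binding proteins and cofactors. The group described here holds 8 known regulators of the Gcg promoter: Pax6, Cdx2, Isl1, Foxa1, Foxa2, Tcf7l2, Ctnnb1 and Pou2f1. Every probe whose gene symbol matched one of these names was taken, which gave 21 of the 45281 probes of the array, with between 1 and 6 probes per gene. The mRNA was that of mGLUTag cells. This immortalized mouse line stands for the intestinal L-cell, the enteroendocrine cell that secretes GLP-1. All cells were grown in DMEM, starved in low serum and given a short pulse of forskolin, which raises cAMP, so as to bring their circadian clocks into phase. RNA was taken 4 h (n = 3) or 16 h (n = 3) after the cells had gone back into growth medium, the hours of the peak and the trough of Arntl, which encodes the clock factor BMAL1. By their titles the 6 samples differ in the hour of collection and the replicate number. Whether cultures or slides also differed between the hours is not stated in the sources used here. No unsynchronized sample was analysed here, and the group as a model is limited to 1 immortalized line. The question was which of the 8 regulators are expressed in these cells, and whether any of them differs between 4 h and 16 h as Gcg does.

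The regulators act through different parts of the promoter. PAX6, ISL1 and CDX2 carry homeodomains and bind AT-rich elements close to the transcription start, where they activate Gcg in islet and intestinal endocrine cells. FOXA1 and FOXA2 are forkhead proteins that can open chromatin for other factors and bind within the enhancer elements upstream of the gene. β-catenin (Ctnnb1), the effector of canonical Wnt signalling, has no DNA-binding domain of its own and reaches the promoter through TCF7L2. OCT1 (Pou2f1), a POU homeodomain protein, has been described at the same region as CDX2. Levels of a factor's mRNA do not report its binding, its phosphorylation or its place in the cell, and β-catenin in particular is controlled at the level of protein stability.

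The 250 bases before the start of Gcg are shown because they hold short cores of the kind that forkhead, homeodomain and TCF proteins recognise. They lie at chr2:62483654-62483903 on the minus strand (GRCm38.p6), directly upstream of the gene, which RefSeq places on chromosome 2 from 62474530 to 62483653. The sequence is from RefSeq and is written 5′ to 3′ along the gene. Capitals mark CTTTG (TCF core), TATTTAC or TGTTTAC (forkhead core), TAAT (homeodomain core) and TTTAT (Cdx core) on either strand.

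Gcg promoter: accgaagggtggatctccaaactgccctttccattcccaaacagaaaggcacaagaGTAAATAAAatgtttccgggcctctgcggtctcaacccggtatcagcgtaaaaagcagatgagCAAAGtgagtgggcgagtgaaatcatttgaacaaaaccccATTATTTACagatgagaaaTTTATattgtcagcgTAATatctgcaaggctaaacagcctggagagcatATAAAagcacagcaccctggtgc

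Positions were counted backwards from the first transcribed base, with -1 the last base shown. The forkhead core stands at -194 to -188 and again at -89 to -83, and a window of this length held at least 1 in 5.76% of the 32851 RefSeq promoter windows of the mouse. The homeodomain core stands at -91 to -88, where it overlaps a forkhead core, and at -57 to -54, and 54.9% of windows held it. The Cdx core occurs 3 times, at -190 to -186 overlapping a forkhead core, at -72 to -68 and at -23 to -19, where it overlaps TATAAA, and 37.3% of windows held it. The single TCF core at -131 to -127 is a motif that 48.6% of windows hold. The octamer ATGCAAAT bound by OCT1 was not found in this window, nor were CACGTG, the canonical E-box of clock factors, or TGACGTCA, the cAMP response element, which 1.6%, 6.02% and 1.55% of windows hold. The looser E-box CANNTG was found 3 times, at -139 to -134, -108 to -103 and -83 to -78, and 66.2% of windows held it. E-boxes outside this form were not searched for. The motifs were chosen after the sequence had been seen. A match describes letters and not a bound site, and a motif that is missing here can lie elsewhere in the gene.

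Each array was read against its own noise. The deposited intensities had had background subtracted, so that many probes lay below 0, and the noise limit was taken from these values: the 99th percentile, array by array, of their size below 0. These limits lay between 9.2 and 14 intensity units, and between 16964 and 17847 probes per array exceeded them, with 14941 probes above on all 6 arrays. The 4 h arrays were brighter throughout, with a mean intensity of 322 ± 31.3 (SD, n = 3) against 236 ± 16.96 (SD, n = 3), and probes above the limit on all arrays had a median intensity ratio of 1.46. Changes are therefore given on the log2 scale after normexp correction (offset 50) and quantile normalization, as 4 h minus 16 h, which hides any rise or fall common to most transcripts. Of 9 L-cell markers, 7 were above the limit on all arrays, with summed intensities between 29704 and 32474 at 4 h and between 18769 and 22572 at 16 h. Pyy was above it on no array and Pcsk1 on 1. Most of each sum was Gcg, with 18607 to 21126 at 4 h and 11298 to 12947 at 16 h. The markers of islet beta cells (4 genes), enterocytes (4 genes) and leukocytes (1 gene) were above it on no array, and of the 2 Paneth cell genes 1 was above it on a single array. Of 3 goblet cell genes, Tff3 was above it on all 6 and Muc2 and Clca1 on none, and of 4 fibroblast genes, Col1a1 was above it on all 6 and Col1a2 and Col3a1 on none. Probes for 18S ribosomal RNA were high on 4 h replicates 1 and 3 and on 16 h replicate 1, with mean log2 values of 8.50, 10.57 and 9.24, against 6.91, 7.71 and 7.02 on the other arrays.

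Messenger RNA of 6 of the 8 regulators was measured on every array. Cdx2, Isl1, Foxa1, Foxa2, Ctnnb1 and Pou2f1 each had at least 1 probe above the noise limit on all 6 arrays. Pax6 was above it on each of the 3 arrays of 4 h but on just 1 of 3 at 16 h, and none of the 5 probes of Tcf7l2 was above it on any array. In all, 10 of the 21 probes were above the limit on all arrays and 10 were above it on none. The counts of genes were the same with a lower limit (95th percentile, between 7.2 and 11.1) and with a higher one (the maximum, between 13.9 and 20.6), under which Pax6 was above on 2 arrays.

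**Figure D1:**
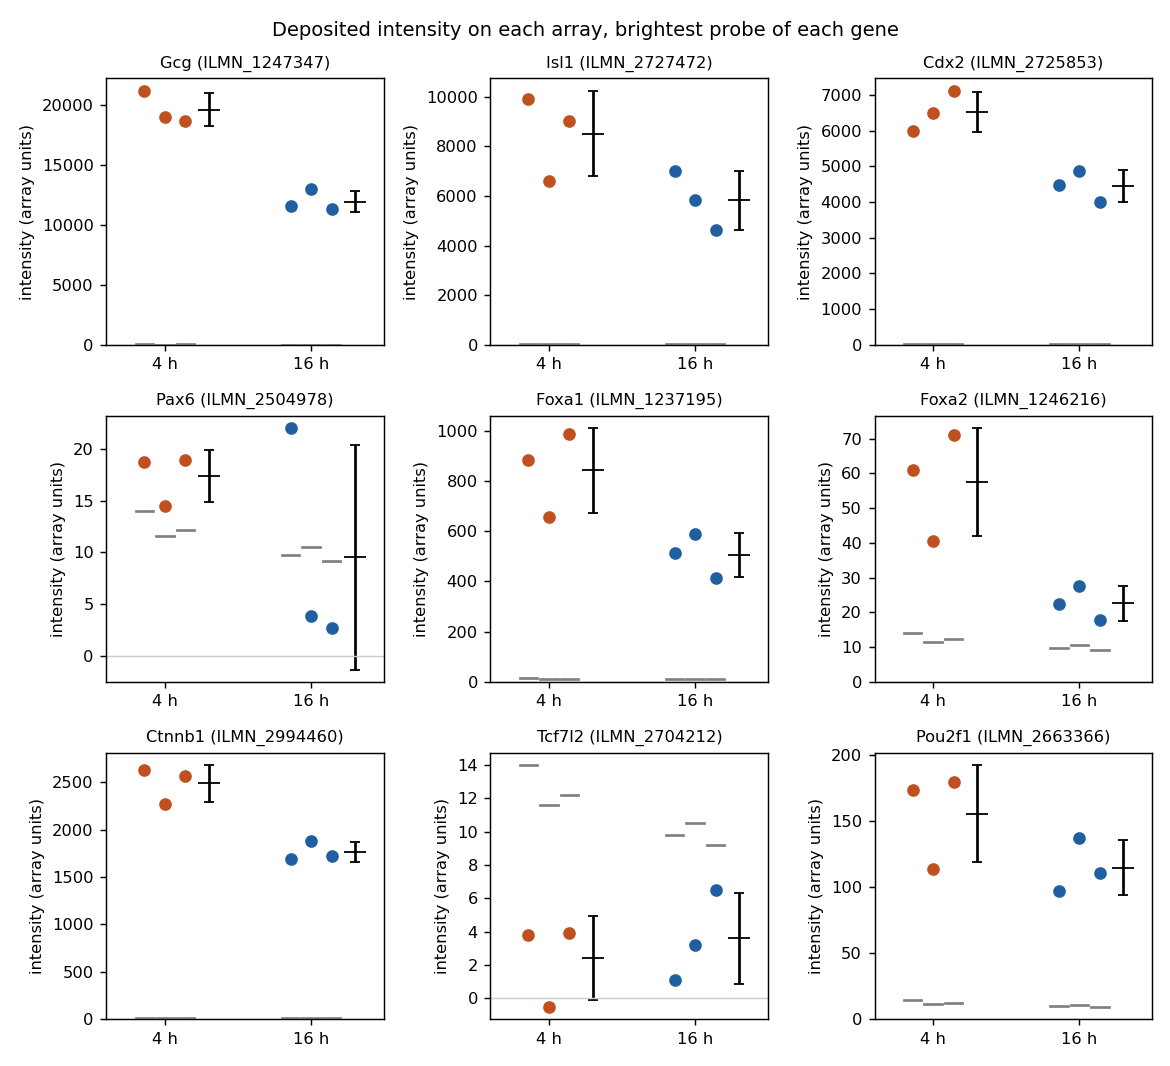
Deposited, background-subtracted intensity (array units, linear scale) of Gcg and of the probe with the highest mean normalized value of each regulator, with 1 point per array, red for 4 h and blue for 16 h. Black crosses give the mean ± SD (n = 3) and grey ticks the noise limit of each array, and the vertical scale differs between panels. Tcf7l2 lies under the limit on all 6 arrays and Pax6 close to it, while the other regulators lie above it on all arrays.

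No regulator differed between the time points at the threshold. Of the 21 probes, limma called 0 as higher and 0 as lower at 4 h with Benjamini-Hochberg adjustment over all probes (threshold 0.05), where 4 of 45281 probes (0.00883%) passed, 2 in each direction (0.00442% each). The smallest adjusted p of a member was 0.624. At an unadjusted p under 0.05, 1 of the 21 member probes was counted (4.76%), against 5.42% of all probes, and 1 of the 10 that were above the noise limit on all arrays (10%), against 10.9% of the 14941 such probes. The single probe was that of Foxa2. The counts moved to 2 higher and 0 lower after median scaling and to 4 higher and 0 lower with no between-array normalization, settings under which the median probe above the limit had a change of 0.30 and 0.39. Of all probes 1.84% and 5.10% were then called higher. Whether the samples of a time point came from separate cultures is not stated, so p-values measure only the spread between these samples.

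Gcg itself (probe ILMN_1247347) gave intensities of 21126, 18961 and 18607 at 4 h, against 11525, 12947 and 11298 at 16 h. The normalized log2 levels were 14.01, 14.14 and 14.15 at 4 h, against 13.62, 13.84 and 13.77 at 16 h, so that the time points did not overlap. The mean was 14.10 ± 0.08 (SD, n = 3) at 4 h, against 13.75 ± 0.12 (SD, n = 3) at 16 h. The change was 0.35 (SE 0.082, 95% interval 0.17 to 0.53) with a limma adjusted p of 0.461, and 1.45% of the probes above the limit on all arrays had a larger one. By the ratio of deposited intensities, without an offset, 24.1% of these probes exceeded Gcg and 0.495% exceeded Foxa2. Gcg therefore stands as the reference of this comparison with a change that did not pass the threshold either, and of the settings tried it passed in those that left the median probe higher at 4 h, with 0.62 after median scaling and 0.71 without normalization between arrays (limma adjusted p = 0.0309 in both). Linear scaling of the arrays gave 0.18 for Gcg with an unadjusted limma p of 0.0997.

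The forkhead factors had the largest changes of the regulators in the planned fit, an order that other settings did not keep. Foxa2 (chromosome 2, 148042877 to 148046969, GRCm38.p6), which in endoderm acts early to make chromatin accessible, was read by probe ILMN_1246216 with intensities of 61.0, 40.6 and 71.0 at 4 h, against 22.5, 27.7 and 17.7 at 16 h. Its normalized log2 levels were 6.72, 6.72 and 6.89 at 4 h, against 6.46, 6.58 and 6.46 at 16 h. Every 4 h array lay above every 16 h array, as for Gcg, a pattern shared by 5.54% of all probes in this direction and by 6.12% of those above the limit on all arrays. In either direction 10.9% of all probes did not overlap (5.38% with the lower values at 4 h), and the other 3 such member probes, 1 higher and 2 lower, were undetected probes of Tcf7l2. The mean was 6.78 ± 0.10 (SD, n = 3) against 6.50 ± 0.07 (SD, n = 3), a change of 0.28 (SE 0.077, 95% interval 0.10 to 0.45, unadjusted p = 0.00563, limma adjusted p = 0.624). A larger change was found for 3.34% of the probes above the limit on all arrays.

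Foxa2 is dim on this array, and the offset added before the logarithm shrinks the changes of dim probes. The ratio of its mean deposited intensities was 2.54, against 1.64 for Gcg and 1.46 for the median probe above the limit. With an offset of 16 its change was 0.42, and with no background correction it was 0.75. Neither passed the threshold, with limma adjusted p-values of 0.863 and 0.564. The second Foxa2 probe (ILMN_1229325) was above the limit on no array, and the mean over both probes gave a change of 0.13. With any 1 array left out the change of Foxa2 lay between 0.21 and 0.32, and with arrays blocked by high or low 18S ribosomal RNA it was 0.27.

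Foxa1 (chromosome 12, 57540628 to 57548029), the paralogue of Foxa2 that binds the same core, was read by 1 probe (ILMN_1237195). The intensities were 883, 657 and 987 at 4 h, against 515, 588 and 414 at 16 h. The normalized log2 levels were 9.57, 9.46 and 9.74 at 4 h, against 9.39, 9.50 and 9.33 at 16 h. The 4 h replicate 2 lay under the 16 h replicate 2, so that the time points overlapped by this pair. The change was 0.18 (SE 0.089, 95% interval -0.02 to 0.39, limma adjusted p = 0.919), and it lay between 0.11 and 0.25 with 1 array left out. Both forkhead genes thus had the higher mean at 4 h, and the interval of Foxa1 includes 0.

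Among the homeodomain factors, Cdx2 and Isl1 were bright. Cdx2 (chromosome 5, 147300900 to 147307249), which sets intestinal identity in the epithelium and activates Gcg, gave intensities of 5985, 6511 and 7116 at 4 h, against 4472, 4878 and 4000.1 at 16 h with its only probe (ILMN_2725853). The normalized log2 levels were 12.23, 12.60 and 12.64 at 4 h, against 12.32, 12.45 and 12.36 at 16 h. The 4 h replicate 1 lay under all 16 h arrays while the other two 4 h arrays lay above them. The change of 0.12 (SE 0.11, 95% interval -0.13 to 0.37, limma adjusted p = 0.959) was smaller than the spread at 4 h (SD 0.22), and it moved with the arrays used. It was 0.24 without 4 h replicate 1, 0.07 without 4 h replicate 2 and 0.04 without 4 h replicate 3. With linear scaling of the arrays it was 0.02.

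Isl1 (chromosome 13, 116298270 to 116309688), a LIM homeodomain protein of islet and gut endocrine cells, was also read by 1 probe (ILMN_2727472). Its intensities were 9912, 6605 and 9048 at 4 h, against 6995, 5842 and 4637 at 16 h. The normalized log2 levels were 12.95, 12.64 and 13.02 at 4 h, against 12.93, 12.73 and 12.58 at 16 h. The 3 arrays with high 18S ribosomal RNA, 2 of them at 4 h, were also the 3 with the highest Isl1. The change was 0.13 (SE 0.12, 95% interval -0.15 to 0.40, limma adjusted p = 0.962), and it was 0.02 with the 18S separation as a block. It was 0.24 without 4 h replicate 2 and 0.21 without 16 h replicate 1, against 0.05 without 4 h replicate 3 and 0.04 without 16 h replicate 3. With linear scaling it was 0.01.

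Pax6 (chromosome 2, 105668896 to 105698410), a paired homeodomain protein required for Gcg expression in islet and intestine, lay near the noise of the array. Probe ILMN_2504978 gave intensities of 18.8, 14.5 and 19.0 at 4 h, against 22.1, 3.8 and 2.7 at 16 h. At 16 h it was thus above the limit on replicate 1 alone, which was also the highest of the 6 values. The second probe (ILMN_2612187) gave values between -3.6 and 6.5 and was above the limit on no array. The change on the normalized log2 scale was 0.09 (SE 0.11, 95% interval -0.16 to 0.34, limma adjusted p = 0.968), and it moved with the arrays used. It was 0.23 without 16 h replicate 1 (limma adjusted p = 0.568), 0.03 without 16 h replicate 2 and 0.02 without 16 h replicate 3. By deposited intensity, the 3 arrays with high 18S ribosomal RNA were also the 3 with the highest Pax6. On the normalized scale 4 h replicate 2, with low 18S, lay above 4 h replicate 1 (6.28 against 6.25). With the 18S separation as a block the change was 0.03. At this brightness neither a change nor a level of Pax6 was well measured.

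Of the Wnt effectors, Ctnnb1 was bright and Tcf7l2 was not detected. Ctnnb1 (chromosome 9, 120933400 to 120960507) was read by 3 probes, all above the limit on all arrays. The brightest of them (ILMN_2994460) gave intensities of 2629, 2269 and 2564 at 4 h, against 1689, 1880.2 and 1722.5 at 16 h. Its normalized log2 levels were 11.06, 11.12 and 11.11 at 4 h, against 10.99, 11.09 and 11.20 at 16 h. The values of the time points interleaved, with a change of 0.0037 (SE 0.074, 95% interval -0.16 to 0.17, limma adjusted p = 0.999). The other probes went in opposite directions, with 0.13 (SE 0.082, limma adjusted p = 0.942) for ILMN_2696575 and -0.16 (SE 0.13, limma adjusted p = 0.958) for ILMN_2616556, and both intervals include 0. A further probe (ILMN_1255869) carries the symbol CATNB, a synonym of Ctnnb1, and is not counted among the members. It was above the limit on all arrays, with a change of 0.03 (SE 0.17, limma adjusted p = 0.995).

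Tcf7l2 (chromosome 19, 55741797 to 55933659) encodes the Wnt-responsive partner of β-catenin, and its 5 probes gave intensities between -8.9 and 6.5 over the 6 arrays. The probe with the highest mean (ILMN_2704212) gave 3.8, -0.5 and 3.9 at 4 h, against 1.1, 3.2 and 6.5 at 16 h. No level or change can be given for values of this size, and a transcript that these probes do not match, such as another splice form, would not be seen. TCF4 is an older name of TCF7L2, and RefSeq lists it both as a synonym of Tcf7l2 and as the symbol of the E-protein gene Tcf4. Of 3 probes that carry the symbol TCF4 and are not counted among the members, 2 were above the limit on no array. The third (ILMN_2636463) gave intensities of 942.0, 769 and 927 at 4 h, against 498, 751 and 521 at 16 h, with a change of 0.06 (limma adjusted p = 0.979). Which of the genes this probe reads was not tested, since no probe sequence was used here. By its symbol it is counted as Tcf4 in the list of other promoter factors given later.

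Pou2f1 (chromosome 1, 165865150 to 166002749) encodes OCT1, a broadly expressed octamer-binding protein, and 3 of its 6 probes were above the limit on all arrays. The brightest (ILMN_2663366) gave intensities of 173.0, 113 and 180 at 4 h, against 96.4, 137 and 110.4 at 16 h. The normalized log2 levels were 7.57, 7.48 and 7.68 at 4 h, against 7.45, 7.79 and 7.80 at 16 h. Here the mean was lower at 4 h, by a change of -0.10 (SE 0.11, 95% interval -0.34 to 0.14, limma adjusted p = 0.962), with overlapping time points. This direction is relative to other probes, since the mean deposited intensities had a ratio of 1.36 and the change was 0.22 after median scaling and 0.31 without normalization between arrays. With 1 array left out, the change of ILMN_2663366 lay between -0.22 and -0.04. With the probes of the gene averaged it was -0.03. The other detected probes had changes of 0.02 (ILMN_2663367, limma adjusted p = 0.993) and -0.04 (ILMN_3127178, limma adjusted p = 0.983).

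**Figure D2:**
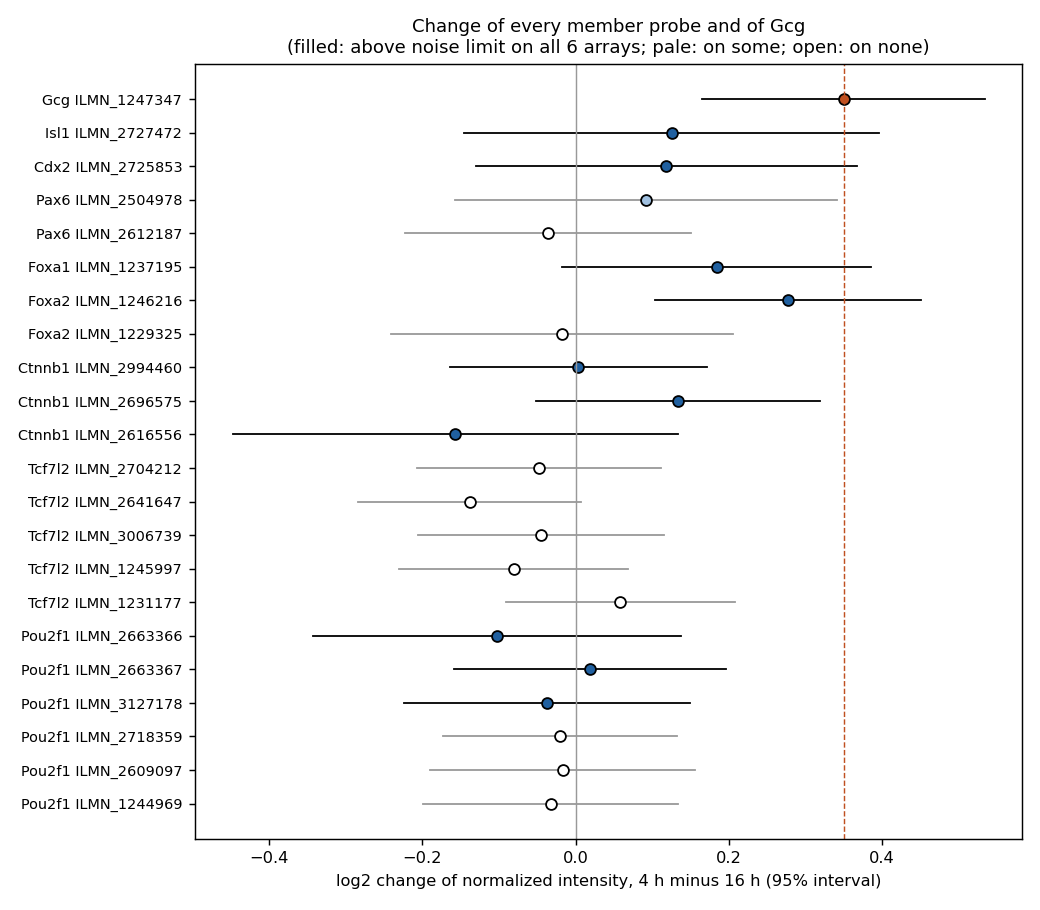
Log2 change of normalized intensity (4 h minus 16 h) of Gcg and of all 21 member probes, each with its 95% interval from limma; filled points were above the noise limit on all 6 arrays, pale points on some and open points on none. The dashed line marks the change of Gcg (0.35). Of the members, Foxa2 probe ILMN_1246216 (0.28) has an interval above 0, from 0.10 to 0.45.

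Of the 6 regulators that were above the limit on all arrays, 5 had the higher mean at 4 h and 1 had the lower. The count rests in part on Ctnnb1, whose change of 0.0037 turned below 0 in 6 of 19 settings, and on Pou2f1, which turned above 0 with the scalings named for it. Their median change was 0.12, beside 0.0014 over the 14941 probes above the limit on all arrays, of which 50.4% were above 0. Over the 10 member probes above the limit on all arrays, 7 changes were above 0 and 3 below, with a median of 0.07. With Pax6, which was near the noise, the intervals of 7 genes ran from -0.34 at the lowest to 0.45 at the highest, so that changes of the size of Gcg (0.35) lay within those of Foxa2, Foxa1, Isl1 and Cdx2. A gene that misses the threshold here was therefore not shown to be constant.

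**Figure D3:**
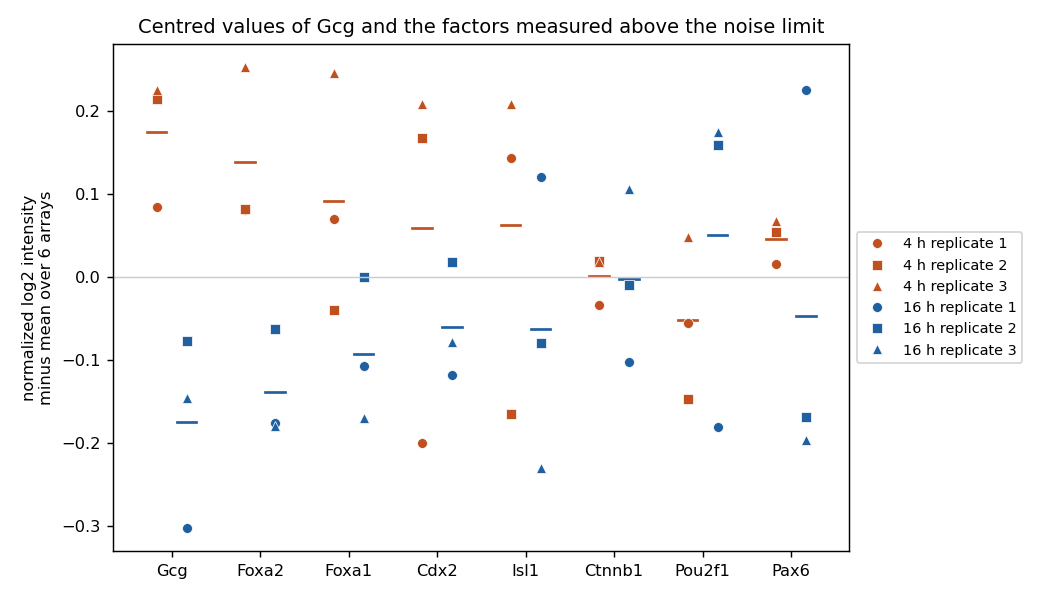
Normalized log2 intensity of Gcg and of the 7 regulators above the noise limit on at least 3 arrays, each minus its mean over the 6 arrays; red points are 4 h arrays, blue points 16 h arrays, the shape gives the replicate number and short lines the means (n = 3). The colours separate for Gcg and Foxa2 and overlap for the other regulators, and 16 h replicate 1 is the highest point of Pax6.

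To establish whether a regulator changed differently from Gcg, the change of the within-array difference between its probe and the Gcg probe was tested with limma over the other 45280 probes. At the threshold 80.6% of all probes differed from Gcg, and 68.1% of those above the limit on all arrays. Of the 7 regulators above the limit on at least 3 arrays 2 did, Pou2f1 at -0.45 relative to Gcg (95% interval -0.70 to -0.21, limma adjusted p = 0.00795) and Ctnnb1 at -0.35 (95% interval -0.58 to -0.11, limma adjusted p = 0.0148). All these tests hold the values of the same Gcg probe, so they are not independent and their intervals may be too narrow. A probe with no change differs from Gcg by the change of Gcg itself, which did not pass the threshold. The difference of Ctnnb1 is of this kind, and the undetected Tcf7l2 probe ILMN_2704212 passed too (limma adjusted p = 0.0103). The call for Ctnnb1 also depends on the probe, since ILMN_2696575, above the limit on all arrays as well, differed from Gcg by -0.22 (limma adjusted p = 0.0759). The CATNB probe differed by -0.32 (limma adjusted p = 0.0647), and ILMN_2616556 by -0.51 (limma adjusted p = 0.00762). For Foxa2 the difference from Gcg was -0.07 (95% interval -0.31 to 0.17, limma adjusted p = 0.542), and for Foxa1 it was -0.17 (95% interval -0.41 to 0.08, limma adjusted p = 0.191). These intervals leave room for the change of Gcg and for a much smaller one. The sign for Foxa2 turned with the offset, since its change was 0.42 beside 0.35 for Gcg with an offset of 16, and 0.75 beside 0.35 without background correction.

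By their brightest probes, the homeodomain factors had estimates between those of the forkhead genes and those of Ctnnb1 and Pou2f1, with overlapping intervals. Ctnnb1 probe ILMN_2696575, at -0.22, was as close to Gcg as they were. Cdx2 differed from Gcg by -0.23 (95% interval -0.48 to 0.01, limma adjusted p = 0.0719), Isl1 by -0.22 (95% interval -0.52 to 0.07, limma adjusted p = 0.137) and Pax6 by -0.26 (95% interval -0.55 to 0.03, limma adjusted p = 0.0895). None of the 3 passed the threshold. The count of 2 moved with the setting, and so did the share of all probes that differed from Gcg. The count was 0 with an offset of 16, without background correction and with linear scaling of the arrays, where the share was 15%, 0% and 0.453%. It was 5 with the 18S block, where the share was 91.6%. With 1 array left out it lay between 1 and 3 and the share between 31.7% and 85%, and it was 1 without 4 h replicate 2 (31.7%) and without 16 h replicate 3 (51%).

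The pattern of Foxa2 over the 6 arrays was compared with that of every other probe above the limit on all arrays, by the root mean square difference of values centred on their mean. The closest of 14940 probes were those of Pik3c2g, a lipid kinase of the PI3K family (0.024), AW146242, a gene named by its sequence tag only (0.027), and Pdx1, a homeodomain factor of the pancreas and duodenum (0.028). The changes were 0.31 for Pik3c2g, 0.23 for AW146242 and 0.25 for Pdx1, none past the threshold. Gcg lay at 0.077 from Foxa2. Of the other regulators, Foxa1 was the nearest to Gcg, at 0.14. The share of probes that lay closer to Foxa2 than Gcg did was not counted, so 0.077 cannot be read as near or far. Foxa2 was taken as the member of smallest p, and probes close to it have a similar change by construction. These distances rest on 6 arrays of 1 cell line and are a description.

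To place the regulators in their pathways, 4 further lists were read in the same fit, with up to 4 genes of smallest p named in each. A change below 0 in these lists is relative to other probes: of the list genes named with one, all but Pou2f2 had the higher mean deposited intensity at 4 h. Of 25 other factors of the Gcg promoter and of islet or enteroendocrine cells, 24 had a probe and 15 were above the limit on all arrays. None was called, and the unadjusted p was under 0.05 for 3 of the 15 (1 higher, 2 lower; 10.9% of probes above the limit on all arrays reached this), with 9 changes above 0 and 6 below, and a median of 0.03. Pdx1 gave intensities of 531, 402 and 564 at 4 h, against 283, 331 and 227 at 16 h, with a change of 0.25 (SE 0.076, limma adjusted p = 0.706) and no overlap between the time points, as for 10.9% of all probes in either direction. Neurod1, a bHLH factor of endocrine differentiation, had mean intensities of 539 at 4 h and 492 at 16 h, but the lower normalized log2 level at 4 h, with 9.02 ± 0.16 (SD, n = 3) at 4 h against 9.37 ± 0.21 (SD, n = 3) at 16 h, a change of -0.35 (SE 0.12, limma adjusted p = 0.7996).

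Also named from this list were Nkx6-1, a homeodomain factor of beta cells (-0.22, limma adjusted p = 0.919), and Pou2f2, the OCT2 relative of Pou2f1 (-0.32, limma adjusted p = 0.919). The endocrine factors thus lay on both sides of 0 in this comparison.

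Of 26 Wnt pathway partners, 25 had a probe and 15 were above the limit on all arrays. None was called, the unadjusted p was under 0.05 for 1 of the 15, which was lower (beside 10.9% of probes above the limit on all arrays), and 7 changes were above 0 and 8 below, with a median of -0.00016. Bcl9, a coactivator that binds β-catenin, had a change of -0.19 (SE 0.080, limma adjusted p = 0.912), and the corepressor gene Tle1 one of -0.19 (SE 0.11, limma adjusted p = 0.937). On the normalized scale both were lower on every 4 h array than on any 16 h array, as were 5.51% of probes above the limit on all arrays. Axin1 and Gsk3b, both of the complex that marks β-catenin for destruction, had changes of 0.13 and -0.18 (limma adjusted p = 0.937 and 0.946). Tcf7 and Lef1, which encode paralogues of TCF7L2, were above the limit on no array. The gene of the list without a matched probe was a further paralogue, Tcf7l1. TCF3 is an older name of it, and probes with that symbol were counted here as Tcf3. Which gene they read was not tested, and both (ILMN_3109289 and ILMN_2771781) were above the limit on no array.

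Of 14 common targets of Wnt signalling, 2 were above the limit on all arrays, Axin2 and Cd44, and none was called. The unadjusted p was under 0.05 for Axin2, as for 10.9% of probes above the limit on all arrays. Axin2, a feedback inhibitor and a usual readout of the pathway, gave intensities of 261, 209 and 304 at 4 h, against 165, 145 and 116 at 16 h. All 4 h values lay above all 16 h values, as for 6.12% of those probes, and the change was 0.22 (SE 0.082, limma adjusted p = 0.836). Sp5, a Wnt-induced repressor, was above the limit on 3 arrays, all at 4 h, with 20, 18.8 and 16.5 against 4.3, -0.6 and 9.0 at 16 h, where none of its values exceeded the limit. It met the rule for named genes through its 4 h values alone, so this split is no evidence of a change. The value of 9.0 lay close to the limit of 9.2 on that array, and the change was 0.21 (SE 0.083, limma adjusted p = 0.878). Cd44 had a change of -0.09 (limma adjusted p = 0.959). The remaining 11 targets, Myc, Ccnd1 and Lgr5 among them, did not reach the limit on 3 arrays.

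Of 14 genes of the cAMP route to the promoter, 9 were above the limit on all arrays. None was called, none reached an unadjusted p under 0.05, and 4 changes were above 0 and 5 below, with a median of -0.03. Prkar1a, a regulatory subunit of protein kinase A, had a change of 0.14 (SE 0.075, limma adjusted p = 0.922) with no overlap, as for 6.12% of probes above the limit on all arrays in this direction, and the catalytic subunit gene Prkacb one of -0.17 (SE 0.16, limma adjusted p = 0.962). The coactivator genes Crtc3 and Crebbp had changes of -0.15 and -0.19 (limma adjusted p = 0.9201 and 0.962), and Crtc3 was lower at 4 h on the normalized scale with no overlap (5.51% in that direction).

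**Figure D4:**
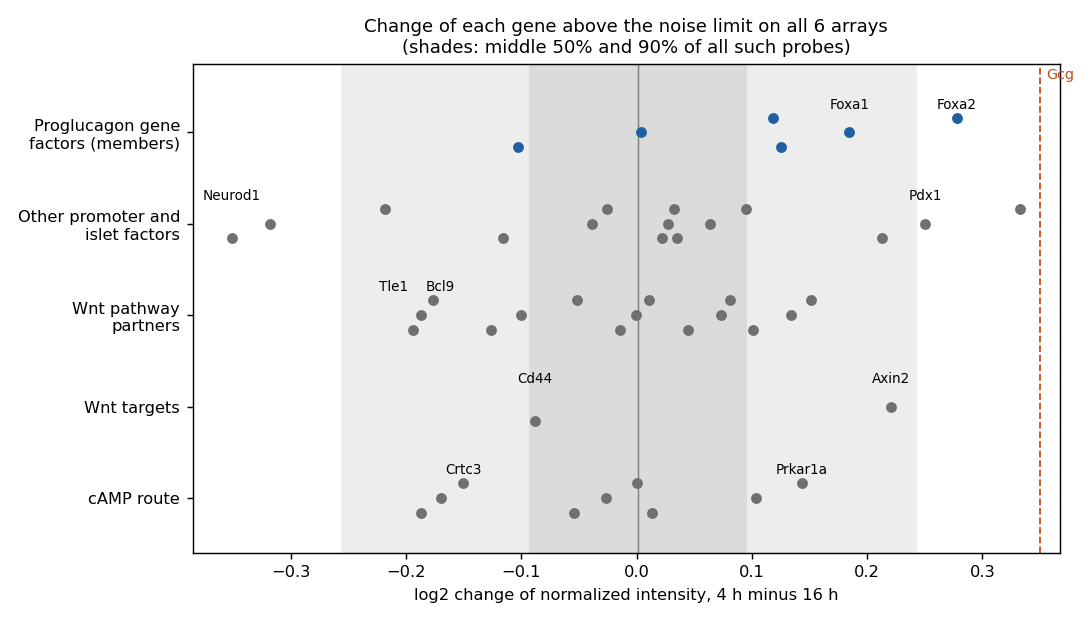
Log2 change of normalized intensity (4 h minus 16 h) of each gene above the noise limit on all 6 arrays, by list, with the vertical place within a list serving only to separate points and the names of the 2 genes of smallest p shown. Shades give the middle 50% and 90% of the 14941 probes above the limit on all arrays (the latter from -0.26 to 0.24), and the dashed line marks Gcg at 0.35. Foxa2 (0.28) lies outside the wider shade, as do Nkx2-2 (0.33), Pdx1 (0.25), Neurod1 (-0.35) and Pou2f2 (-0.32).

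The changes of the regulators were read again under each of 19 settings, with the median change of the probes above the limit taken away, because median scaling and the absence of between-array normalization moved that median. Gcg lay above the median probe by between 0.19 and 0.39 and Foxa2 by between 0.14 and 0.75, both in every setting. Foxa1 (0.10 to 0.28), Cdx2 (0.03 to 0.23) and Isl1 (0.02 to 0.24) were above it in every setting too, and Pou2f1 was below it (-0.22 to -0.04). These agreements count for less than 19, since 4 settings leave a fold change as it was and 2 differ only by the shift taken away, so that 14 values are distinct. Of the 14, Pax6 was above the median probe in 13 and Ctnnb1 in 8. The order of the regulators was not kept. After median scaling Foxa2 (0.14) lay under Foxa1 (0.28), Cdx2 (0.16) and Isl1 (0.15), and without background correction Pax6 (1.11) lay over Foxa2 (0.75). The settings share the same 6 arrays and are not independent of each other.

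**Figure D5:**
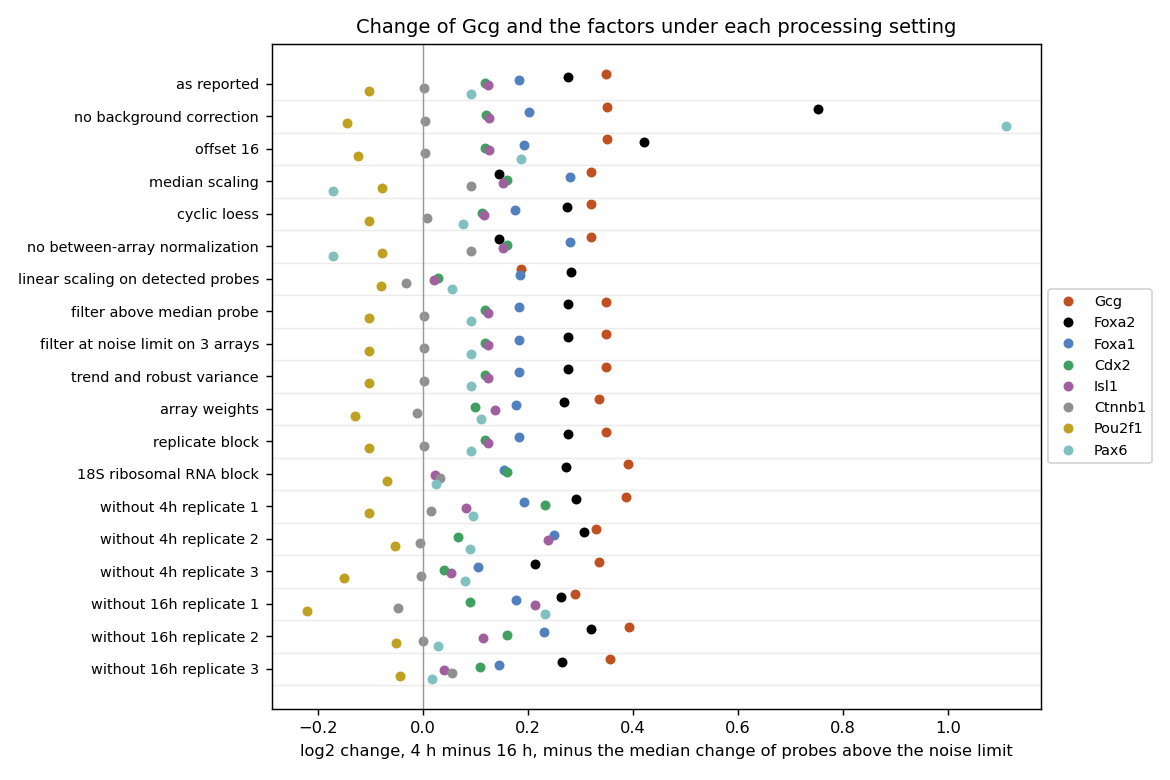
Log2 change (4 h minus 16 h) of Gcg and of the 7 regulators under each processing setting, minus the median change of the probes above the noise limit in that setting; each row is a setting and each colour a gene. Foxa2 and Gcg lie above 0 in every row, Pou2f1 below 0 in every row, and Pax6 ranges from -0.17 to 1.11.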

How the data were processed

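RNA of 6 samples, 3 per time point, was hybridized by the authors to a mouse Illumina BeadChip, 1 array each. The deposited values are background-subtracted intensities per probe on a linear scale, not normalized between arrays. Scanner software and slide are not given in the sources used here. Groups and replicate numbers came from the sample titles, and 0 value columns had no sample.

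After normexp correction (offset 50) and quantile normalization, values were put on the log2 scale. All 45281 probes were fitted with lmFit and eBayes (R 4.3.3, limma 3.58.1), with two-sided p-values adjusted by Benjamini-Hochberg (threshold 0.05). Of several probes for a gene, the one of highest mean normalized value stands for it. A probe under the noise limit on all arrays of a group has only a bound there. The number of arrays limits the precision. Named genes are the 8 members, Gcg, up to 4 genes of smallest p per list among those above the noise limit on at least 3 arrays, and the 3 genes nearest to the member of smallest p. The TCF4 and TCF3 probes, the CATNB probe, Nkx2-2, Tcf7, Lef1, Myc, Ccnd1, Lgr5, the named cell markers and the motifs were picked after their values had been seen. The members and lists were chosen with earlier results of these data known. List genes were matched by symbol (27760 probes) or unique synonym (7994), with 9527 unmatched. The procedure was tested on simulated data. Alternatives were other background corrections, offsets, normalizations, filters, variance models, blocks, probe averaging and leaving out each array. Some genes of the lists are not reported here by name.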

Additional observations from a re-analysis of the deposited data

How the results depend on the processing

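Of the member probes, 2 were called higher at 4 h after median scaling and 4 with no between-array normalization, against 0 otherwise (1.84% and 5.10% of all probes were called higher in these settings), and 0 were called lower in any setting run. After median scaling they were 2 probes of Ctnnb1, which changed by 0.39 (ILMN_2994460, limma adjusted p = 0.0474) and 0.54 (ILMN_2696575, 0.0465). With no between-array normalization they were Cdx2, which changed by 0.55 (0.0368), Foxa2 by 0.54 (0.0440) and the same probes of Ctnnb1 by 0.48 (0.0350) and 0.63 (0.0353). Gcg, not a member, also passed, with 0.62 and 0.71 (0.0309 in both). In these settings the median probe above the limit had a change of 0.30 and 0.39. Pou2f1 turned to 0.22 and 0.31, both under the median of their setting. Ctnnb1, near 0 as reported, was -0.040 with linear scaling, -0.0095 with array weights and -0.0068 with its probes averaged. The number of regulators that differed from Gcg was 0 without background correction, 0 with an offset of 16, 0 with linear scaling, 5 with the 18S ribosomal RNA block and 2 as reported, while 0%, 15%, 0.453%, 91.6% and 80.6% of all probes did. The causes were not tested.

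Leaving out each array in turn gave 0 called probes, between 1 and 3 regulators that differed from Gcg, and changes of 0.29 to 0.39 for Gcg, 0.21 to 0.32 for Foxa2, 0.11 to 0.25 for Foxa1, 0.04 to 0.24 for Cdx2, 0.04 to 0.24 for Isl1, 0.02 to 0.23 for Pax6, -0.046 to 0.057 for Ctnnb1 and -0.22 to -0.04 for Pou2f1. Same-numbered samples deviated from their group means with correlations of 0.25, 0.17 and -0.49 over 14941 probes, so the numbers were not taken as pairs. With the replicate block, 0 member probes were called, 2 regulators differed from Gcg, and the change was 0.28 for Foxa2 (limma adjusted p = 0.757) and 0.35 for Gcg (0.490); no call changed. Of 220 values over all settings, 8 reversed, 6 passed the threshold anew and 8 counts moved by over 1.5 times. Probes near the noise limit, Pax6 among them, and the 3 arrays per time point limit what could be detected.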
